A study of Mus musculus with 6 samples.

Results

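The Hippo pathway effectors and Tead factors are 10 genes chosen by name: the nuclear effectors Yap1 and Wwtr1 (Taz), the DNA-binding factors Tead1, Tead2, Tead3 and Tead4, and the target and feedback genes Ctgf, Cyr61, Lats2 and Amotl2. All 10 were found among the 23235 rows (22969 distinct names) of the RNA-seq table. The cells were of E14Tg2a, a mouse embryonic stem cell (ESC) line, at passages 37 to 40. Pluripotent ESCs were kept in medium with leukemia inhibitory factor (LIF) and gave 3 samples. Differentiated cells, called neuronal cells (NCs) by the study, were monolayers without LIF that had received 1 µM retinoic acid (RA) for 48 h, and gave the other 3 samples. Both conditions came from this single line and shared the same basal medium with serum, and LIF withdrawal and RA addition cannot be told apart.

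The Hippo pathway is a kinase cascade that reads cell contact, cell shape and tension. Its kinases Stk4 and Stk3 (Mst1 and Mst2) activate Lats1 and Lats2, which phosphorylate Yap1 and Wwtr1 and so keep them out of the nucleus. When not phosphorylated, Yap1 and Wwtr1 enter the nucleus and bind Tead factors, which bring them to target genes such as Ctgf and Cyr61, and several targets, among them Lats2 and Amotl2, feed back on the pathway. In the early mouse embryo the pathway separates the outer trophectoderm, where Tead4 and Yap1 act, from the inner cells that give ESCs. Much of its control is on protein phosphorylation and location, which RNA levels do not show.

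The table holds 1 FPKM value (a fragment count divided by transcript length and by the mapped fragments) for each gene in ESCs and 1 in NCs, estimated by the authors from the 3 replicates of each condition. Values of single replicates were not analysed here, so no value below has an SD or an n, no difference was tested, and the differences were not set against the spread between replicates. A gene was called higher or lower in NCs when its FPKM differed at least 2-fold, among the 13293 rows with at least 1 FPKM in either condition. By this rule 12.5% of these rows were higher in NCs and 10.6% were lower, 1658 against 1412, so that 54.0% of the called rows were higher. The columns sum to 770592 FPKM in ESCs and 628679 in NCs. Dividing each value by its column's sum adds 0.29 to every log2 ratio, moves the median over genes with at least 1 FPKM in both conditions from -0.05 to 0.25, and gives 2350 higher and 980 lower rows, of which 70.6% were higher.

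All 10 genes passed the limit of 1 FPKM. Lats2, Amotl2 and Tead3 were called higher in NCs (3 of 10, beside 12.5% of all rows), 0 of 10 were called lower (beside 10.6%), and 7 lay within 2-fold. The ratio of NC to ESC was above 1 for 7 genes and below 1 for Tead1, Tead4 and Ctgf, and after division by the column sums for Tead4 and Ctgf only. The median log2 ratio of the 10 genes was 0.64, beside -0.03 over all rows that passed. Tead2, the most abundant of the 10 in both conditions, was at 1.99-fold, just inside the limit, and Cyr61 was at 1.86-fold.

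**Figure D1:**
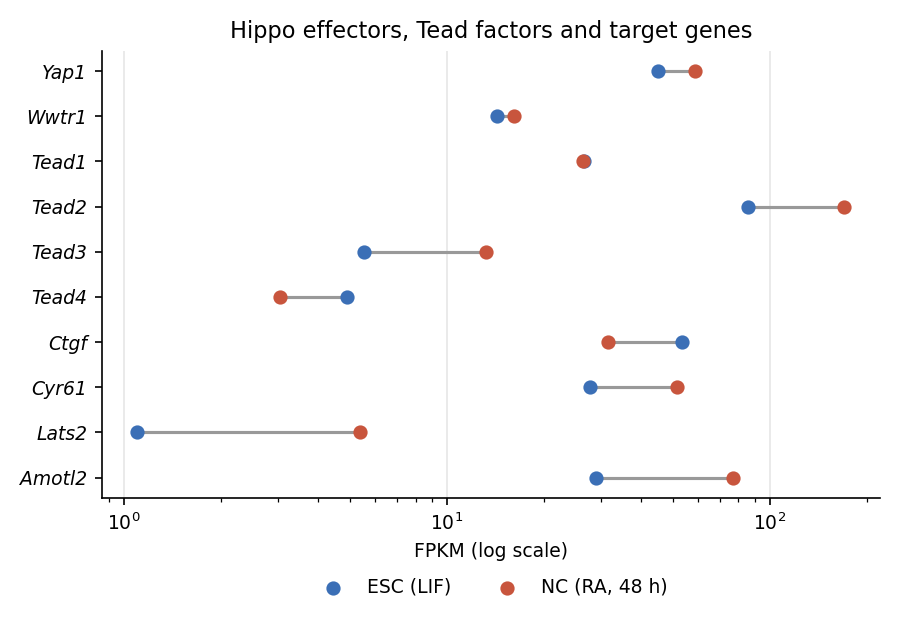
FPKM of the 10 genes (x axis, log scale) in ESCs with LIF (blue) and NCs after RA (red), 1 pooled value per condition, joined by a line for each gene. Lats2 has the widest gap (1.10 to 5.38 FPKM), Tead2 the highest values (85.5 and 170.3 FPKM), and the points of Tead1 lie on each other; Tead4 and Ctgf are the genes with the NC point clearly to the left.

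The nuclear effectors differed little between the conditions. Yap1, the main transcriptional coactivator of the pathway, was listed at 45.2 FPKM in ESCs against 58.6 FPKM in NCs, a 1.30-fold difference (log2 ratio 0.38). Wwtr1, its paralog, was at 14.3 and 16.2 FPKM (1.13-fold, log2 ratio 0.18). Of the genes that passed, 72.6% had a lower ratio than Yap1 and 62.9% a lower ratio than Wwtr1. Per length of transcript, Yap1 was the more abundant of the pair, at 3.16 times the Wwtr1 value in ESCs and 3.63 times in NCs. Together they had 59.5 FPKM in ESCs against 74.8 FPKM in NCs (1.26-fold). Yap1 lies on chromosome 9 (7931999 to 8004596, minus strand) and Wwtr1 on chromosome 3 (57455649 to 57575910, minus strand), in GENCODE M21 on GRCm38, the assembly the study calls mm10.

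The Tead genes encode 4 related factors that share a TEA DNA-binding domain, and they were unequal both in level and in ratio. Tead2, which is known for its expression in the early embryo and neural tissue, was at 85.5 FPKM in ESCs against 170.3 FPKM in NCs, a log2 ratio of 0.99. It was above 91.5% of the genes that passed in ESCs and above 96.5% in NCs. Tead1, the next in level, was almost level between the conditions, at 26.7 and 26.4 FPKM, and the sign of its log2 ratio depended on the scaling (-0.02 as deposited, 0.03 after centring on the median and 0.28 after division by the column sums). Tead3 was at 5.52 FPKM in ESCs against 13.2 FPKM in NCs, 2.39-fold higher, and was the single Tead gene past the 2-fold limit. Tead4, the factor known for its part in trophectoderm, was at 4.91 FPKM in ESCs against 3.04 FPKM in NCs, 1.61-fold lower in NCs (log2 ratio -0.69, and -0.40 after division by the column sums). Tead3 alone was called, and Tead1, Tead2 and Tead4 each differed less than 2-fold between the conditions.

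The summed Tead level was 122.6 FPKM in ESCs against 212.9 FPKM in NCs (1.74-fold), and nearly all of the difference was in Tead2. Tead2 held 69.7% of the sum in ESCs and 80.0% in NCs. The share of Tead1 was 21.7% in ESCs and 12.4% in NCs, that of Tead3 4.50% and 6.20%, and that of Tead4 4% and 1.43%. The order Tead2, Tead1, Tead3, Tead4 was the same in both conditions, but the distances in it were not. Tead3 and Tead4 were close in ESCs, at a ratio of 1.12, and 4.34-fold apart in NCs. Tead2 was 3.21 times Tead1 in ESCs and 6.46 times in NCs. Against the effectors, the summed Tead level was 2.06 times that of Yap1 and Wwtr1 in ESCs and 2.85 times in NCs. These shares are within a condition and do not change when a column is rescaled.

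**Figure D2:**
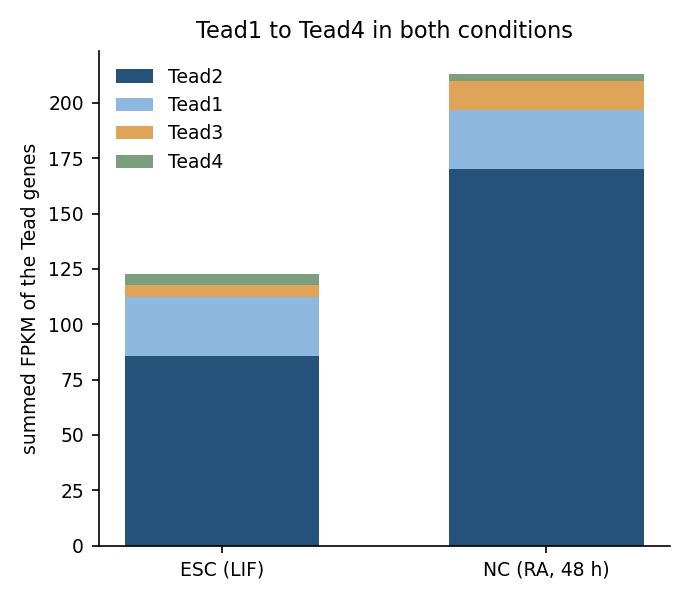
Summed FPKM of Tead1 to Tead4 (y axis, linear from 0) in ESCs and NCs, stacked by gene, 1 pooled value per gene and condition. The stack is 122.6 FPKM in ESCs against 212.9 FPKM in NCs, and the Tead2 block is 85.5 FPKM in ESCs against 170.3 FPKM in NCs while the Tead1 blocks are of almost equal height.

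The Tead genes lie on chromosomes 7 (Tead1, 112679318 to 112906807, and Tead2, 45215753 to 45233644, both on the plus strand), 17 (Tead3, 28331671 to 28350817, minus strand) and 6 (Tead4, 128224288 to 128300823, minus strand). As they are paralogs, their transcripts were compared for shared stretches of 50 bases. Tead3 had 0.144% of its 50-base words in Tead4 and Tead4 had 0.272% of its words in Tead3, while Tead2 had 0% in any other gene. Of its exonic bases, Tead2 shared 0.272% with Cd37 on the opposite strand, which was at 0.926 FPKM in ESCs against 3.72 FPKM in NCs.

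The target genes Ctgf and Cyr61, both secreted matricellular proteins of the Ccn family and the usual readouts of Yap1 and Tead activity, had ratios on opposite sides of 1. Ctgf (connective tissue growth factor, Ccn2) was at 53.6 FPKM in ESCs against 31.7 FPKM in NCs, 1.69-fold lower in NCs (log2 ratio -0.76, and -0.47 after division by the column sums). Cyr61 (Ccn1) was at 27.8 FPKM in ESCs against 51.7 FPKM in NCs, 1.86-fold higher. Their order was therefore exchanged: Ctgf was 1.93 times Cyr61 in ESCs, and Cyr61 was 1.63 times Ctgf in NCs. Their sum was almost the same in both, at 81.4 and 83.3 FPKM (1.02-fold). The other 4 genes of the Ccn family, Nov and Wisp1 to Wisp3, were at or below 0.317 FPKM in both conditions and did not pass the limit, so Ctgf and Cyr61 were the 2 genes of the family above 1 FPKM.

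Ctgf lies on chromosome 10 (24595442 to 24598683, plus strand) and Cyr61 on chromosome 3 (145646976 to 145649981, minus strand). Of the exonic bases of Ctgf, 23.2% are also exonic in Gm15270 on the opposite strand. Whether strand was used in counting is not given in the sources used here, so reads of Gm15270 cannot be told apart from those of Ctgf in that stretch. No exon of another gene overlaps Cyr61.

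The feedback genes Lats2 and Amotl2 were the members with the highest ratios. Lats2, a kinase that phosphorylates Yap1 and Wwtr1 and is itself their target, was at 1.10 FPKM in ESCs against 5.38 FPKM in NCs, 4.90-fold higher (log2 ratio 2.29). Its ESC value lay just above the limit of 1 FPKM and above 8.32% of the genes that passed, and its NC value above 32.1%, so Lats2 was a low gene in both. Its paralog Lats1 was at 5.41 FPKM in ESCs against 7.97 FPKM in NCs, 4.92 times Lats2 in ESCs and 1.48 times in NCs. Lats2 lies on chromosome 14 (57689662 to 57758388, minus strand), and its value is uncertain because 42.4% of its exonic bases and 41.2% of its 50-base words are shared with Gm49361, an annotated gene on the same strand.

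Amotl2, an angiomotin that holds Yap1 at cell junctions, was at 28.9 FPKM in ESCs against 77.1 FPKM in NCs, 2.67-fold higher (log2 ratio 1.42). It was the fourth of the 10 genes in level in ESCs and the second in NCs. It was also the most abundant angiomotin: its value was 6.99 times that of Amot in ESCs and 5.89 times in NCs, and 5.24 and 8.28 times that of Amotl1. Amot itself was at 4.13 FPKM in ESCs against 13.1 FPKM in NCs (3.17-fold higher), and Amotl1 was at 5.52 and 9.31 FPKM (1.69-fold), so all angiomotin genes had ratios above 1. Amotl2 lies on chromosome 9 (102716672 to 102733418, plus strand).

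**Figure D3:**
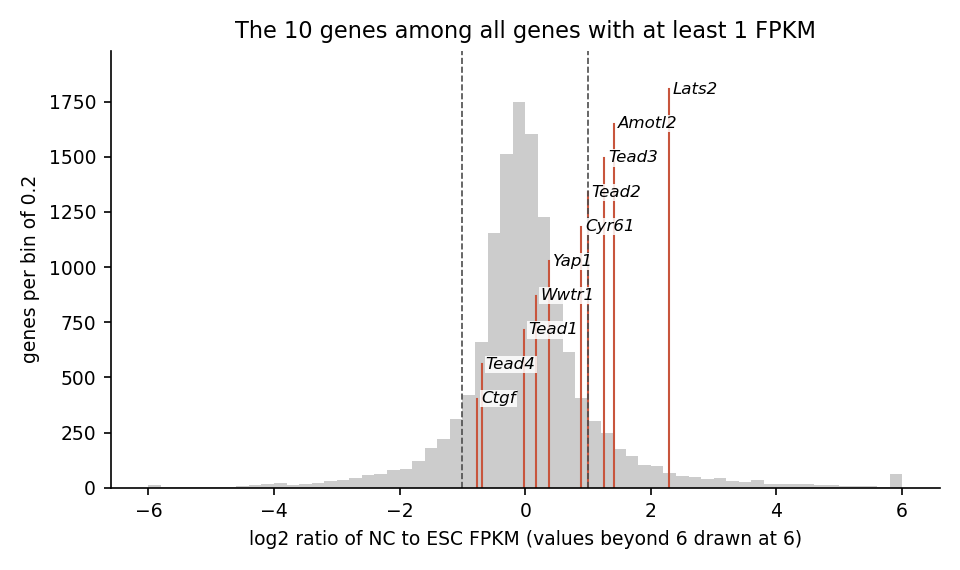
Number of genes per bin of 0.2 (y axis) by log2 ratio of NC to ESC FPKM (x axis) for the genes with at least 1 FPKM in either condition and above 0 in both, with the 10 genes as red lines whose heights only separate the names. Dashed lines mark 2-fold: Lats2 (2.29), Amotl2 (1.42) and Tead3 (1.26) lie beyond the right one, Tead2 (0.99) lies on it, and Ctgf (-0.76) and Tead4 (-0.69) lie inside the left one.

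The promoters of these genes were searched for the core of the Tead binding motif, GGAATG or CATTCC on the other strand, in RefSeq windows of GRCm38.p6 from 250 bases before to 50 bases after each start. A promoter was held for 7 of the 10 genes, and 6 of these 7 had the letters in the window of at least 1 start, while Tead2 had none. Promoters of Tead1, Tead4 and Ctgf, the members with a ratio below 1, were not analysed here, so these counts cover genes with a ratio above 1 only. Of all 32851 promoter windows, 14.7% held them. Several genes have more than 1 start, so a count over genes and a share over windows are not on the same footing. The stretches around the letters are shown for the 4 genes with the highest ratios among those with a match, in the direction of transcription and with the letters in capitals. The stretches are chr14:57746102-57746131 on the minus strand for Lats2, chr9:102717727-102717756 on the plus strand for Amotl2, chr17:28350935-28351034 on the minus strand for Tead3 and chr3:145650036-145650135 on the minus strand for Cyr61. That of Lats2 is shorter because the letters lie after the start, and that of Amotl2 because a longer stretch met an annotated exon.
Lats2: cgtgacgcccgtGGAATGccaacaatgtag
Amotl2: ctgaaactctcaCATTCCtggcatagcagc
Tead3: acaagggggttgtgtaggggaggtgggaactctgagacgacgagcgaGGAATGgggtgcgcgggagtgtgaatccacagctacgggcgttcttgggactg
Cyr61: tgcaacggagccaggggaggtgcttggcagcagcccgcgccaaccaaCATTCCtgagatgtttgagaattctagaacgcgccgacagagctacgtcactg
Counted from the start as position 1, the letters began at position 5 from the first start of Lats2, whose second start had none. In the other genes shown they began at -65 in Amotl2, -182 from the first start of Tead3 and -103 in Cyr61. They were also present at -141 in Yap1 and at -136 from the first start of Wwtr1, whose ratios were nearest to 1 among the matched genes. A match describes the letters only, and no binding was measured here. The letters AGGTCA, or TGACCT on the other strand, which retinoid and other nuclear receptors bind, were searched for after the data had been seen. They were found in the windows of Amotl2 (-31) and Wwtr1 (26 from the first start), and in 16.3% of all windows.

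Over a wider list of 22 target genes of Yap1 and Wwtr1, to which Ctgf, Cyr61, Lats2 and Amotl2 belong, 19 passed the limit. Of these, 5 were called higher (26.3%, beside 12.5% of all rows), 2 were called lower (10.5%, beside 10.6%) and 12 lay within 2-fold, and the median log2 ratio was 0.60. Without the members, 15 targets passed, 3 were higher and 2 were lower, with the same median of 0.60. Among the higher ones were Crim1, a transmembrane protein that binds growth factors of the BMP family (2.13 and 5.88 FPKM in ESCs and NCs, 2.76-fold) and Tgfb2, a transforming growth factor (0.708 and 2.06 FPKM, 2.92-fold). The lower ones were Ankrd1, a nuclear ankyrin-repeat protein that is another common readout of Yap1 (1.90 and 0.510 FPKM, 3.73-fold lower), and Dock5, a Rac exchange factor (3.42 and 1.55 FPKM, 2.22-fold lower). Of the common readouts Ctgf, Cyr61 and Ankrd1, only Ankrd1 was called, and Tgfb2 and Ankrd1 passed the limit of 1 FPKM in a single condition each, that of their higher value. With a pseudocount of 1 the list had 3 higher and 0 lower genes, as neither Ankrd1 nor Dock5 was then called. Over all 13293 rows the counts were then 1074 and 974. After division by the column sums the list had 9 higher and 1 lower, beside 2350 and 980 of all rows. The letters searched above were found for 7 of the 15 targets with a promoter, while 14.7% of all promoter windows held them, a share over windows and not genes. These 7 include the members Lats2, Amotl2 and Cyr61, already counted above. Outside the members the letters were found for Ankrd1 (-210 and -123), Crim1 (-79), Axl and Ptpn14, so they were present beside ratios of either sign.

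**Figure D4:**
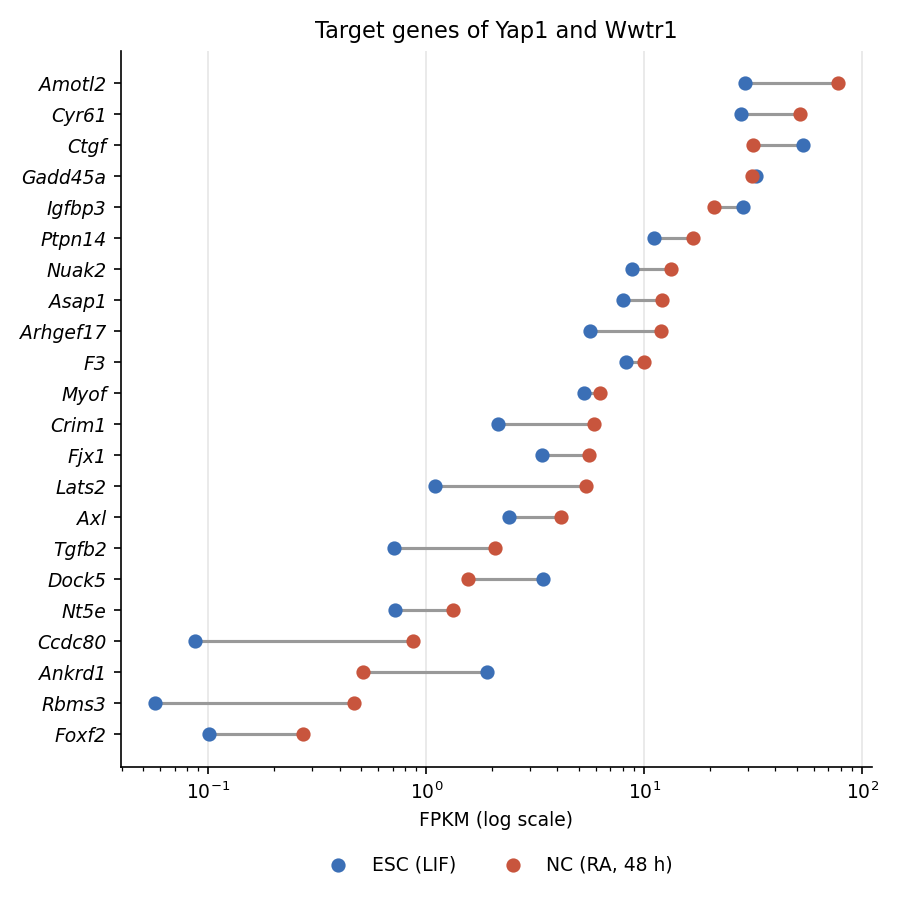
FPKM (x axis, log scale) of 22 target genes of Yap1 and Wwtr1 in ESCs (blue) and NCs (red), 1 pooled value per condition, ordered by the NC value. Red points lie to the right for most genes, while Ctgf, Dock5 and Ankrd1 have them clearly to the left, and Ccdc80, Rbms3 and Foxf2 are below 1 FPKM in both conditions.

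Upstream of the effectors, the core kinase cassette had mostly ratios above 1, with Lats2 as its single gene past 2-fold. Its other 6 genes all passed the limit and lay within 2-fold, with a median log2 ratio of 0.58. The kinase Stk3 was at 9.91 FPKM in ESCs against 10.5 FPKM in NCs, and Stk4 at 21.7 and 18.6 FPKM (log2 ratio -0.23, and the sign turned after division by the column sums). Their scaffold Sav1 was at 15.3 and 23.8 FPKM. The Lats cofactors Mob1a and Mob1b were at 28.9 and 44.0 FPKM and at 4.34 and 6.77 FPKM. Sav1, Mob1a, Mob1b and Lats1 were thus between 1.47-fold and 1.56-fold higher in NCs. The other kinases that act on Lats, of the Map4k and Taok families, had 9 of 10 genes past the limit of 1 FPKM. Of these, 0 were called in either direction, and the median log2 ratio was -0.06. The 8 subunits of the STRIPAK phosphatase, which opposes Stk3 and Stk4, had 0 called and a median of 0.20. Over all rows 12.5% were called higher and 10.6% lower, so lists this short would hold few calls at those shares.

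Of 24 regulators upstream or at cell junctions, 23 were in the table and 20 passed. The list includes Amotl2, and 4 were called higher (20.0%, beside 12.5% of all rows) and 1 lower (5%, beside 10.6%). Without Amotl2, 19 passed, 3 were higher (15.8%) and 1 was lower (5.26%), with a median log2 ratio of 0.19. Beside Amotl2 and Amot, the higher ones were Dchs1, a large cadherin that pairs with Fat cadherins (0.231 FPKM in ESCs against 2.43 FPKM in NCs, 10.5-fold), and Limd1, a LIM protein that binds Lats kinases (7.97 and 18.1 FPKM, 2.27-fold). The lower one was Crb3, an apical polarity protein (27.1 and 8.16 FPKM, 3.32-fold lower). Of the higher ones, Dchs1 passed the limit of 1 FPKM only in NCs. With at least 1 FPKM in both conditions, 3 genes of the list were higher. Nf2, which recruits Lats to the membrane and was named after its value was seen, was at 53.6 and 31.4 FPKM (1.70-fold lower). Of the proteins that bind the effectors or Tead factors, Vgll4, a Vestigial-like cofactor that competes with Yap1 for Tead factors, was at 2.34 FPKM in ESCs against 9.41 FPKM in NCs (4.01-fold higher), Vgll3 was at 1.32 and 0.970 FPKM, and Vgll1 and Vgll2 were below 1 FPKM. Of the 7 genes for 14-3-3 proteins, which hold phosphorylated Yap1 in the cytoplasm, 1 was called lower, Sfn, at 28.9 and 2.54 FPKM (11.4-fold lower), and the other 6 lay within 2-fold. Over all 78 pathway genes other than the members, 77 were in the table and 64 passed. Of these, 7 (10.9%) were called higher and 4 (6.25%) lower, with a median log2 ratio of 0.14, beside 12.5% and 10.6% of all rows.

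**Figure D5:**
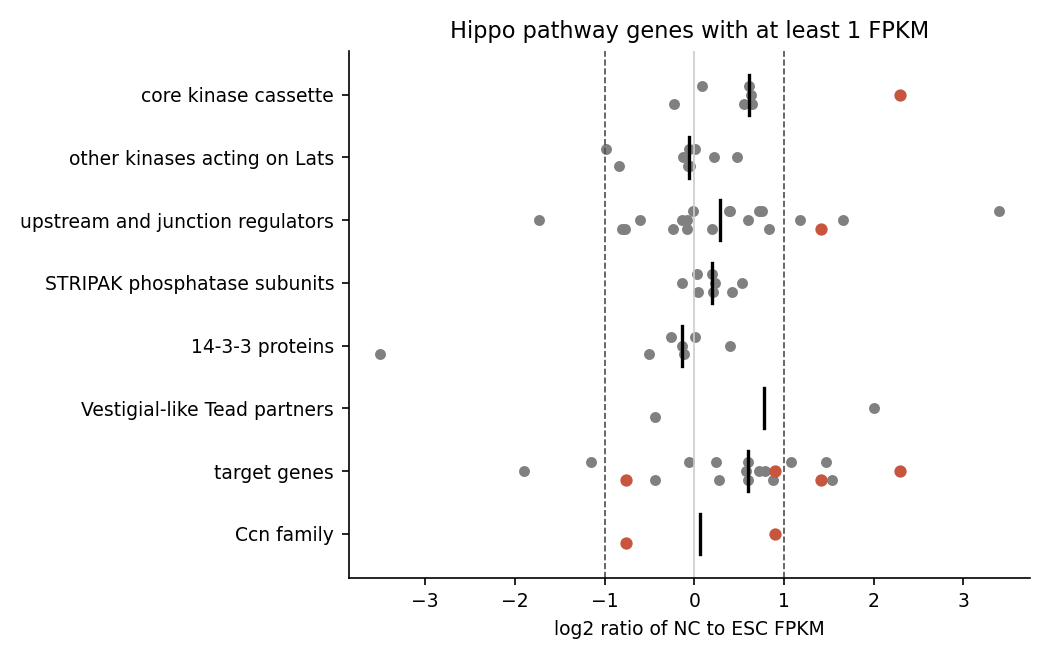
Log2 ratio of NC to ESC FPKM (x axis) for each gene with at least 1 FPKM in either condition, by list (y axis); red points are members of the 10 genes, grey points are other genes, black bars are medians of the list and dashed lines mark 2-fold. Most points lie between the dashed lines, with Lats2 (2.29), Dchs1 (3.40) and Vgll4 (2.01) far to the right and Sfn (-3.51) far to the left.

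The labelled identity of the cells was checked with marker genes. The counts below stand beside 12.5% of all rows called higher and 10.6% called lower. All 10 markers of pluripotent ESCs were lower in NCs, among them Pou5f1 (832 and 37.1 FPKM), and their sum was 2728 FPKM in ESCs against 183.1 FPKM in NCs. Of 8 neural progenitor markers, 5 were higher, among them Pax6 (3.64 and 65.2 FPKM), and 1 was lower. Hes5, one of the higher ones, passed the limit of 1 FPKM only in NCs, and Fabp7, the lower one, only in ESCs. Markers of neurons mostly went against the name NC. Of 8 that passed, 0 were higher and 6 were lower, among them Tubb3 (33.4 and 7.54 FPKM). Of the lower ones, Nefm, Elavl3 and Syp passed the limit only in ESCs. The 2 that did not pass, Dcx (0.014 and 0.334 FPKM) and Th (0.032 and 0.25 FPKM), had ratios above 1. The sum of all 10 was 195.6 and 26.6 FPKM, of which Stmn2 made 142.2 and 11.8 FPKM. Of the markers of other cell types, most of those called were higher in NCs, and Thy1 and Tfap2c were called lower. Of 8 fibroblast markers, 6 passed, 5 were called higher and 1 was called lower (Thy1, 9.64 and 1.80 FPKM). Of the 5, Col3a1, Dcn and Fbn1 passed the limit only in NCs. Lum was listed at 0 in ESCs, and the sum of all 8 was 20.32 FPKM in ESCs against 47.02 FPKM in NCs. Of 8 mesoderm markers, 3 were called higher, of which Hand2 and Pdgfra passed the limit of 1 FPKM only in NCs, and 5 were below it in both conditions, among them T (0.628 and 0.299 FPKM), with sums of 4.93 and 22.4 FPKM. Of 10 endoderm markers, 8 passed, 6 were called higher and 0 lower, with sums over all 10 of 35.6 and 65.2 FPKM. Of the 6, Foxa2, Sox17 and Sox7 passed the limit only in NCs. Of 8 trophectoderm markers, 5 passed, 3 were called higher and 1 lower (Tfap2c, 7.41-fold, at 4.59 FPKM in NCs). The higher ones were Krt8, Krt18 and Gata3 (0.204 and 4.02 FPKM, 19.75-fold), which passed the limit only in NCs. The sums of 112.6 and 177.4 FPKM were mostly Krt8 and Krt18, and Cdx2, which defines trophectoderm, was at 0.274 and 0.353 FPKM. Their part in the values of Lats2, Amotl2, Tead3, Cyr61 and Ctgf was not tested, and in these bulk samples more cells of a type and more RNA per cell cannot be told apart.

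The number of fragments per sample is not given in the files, and was estimated from the steps between the lowest values. At the larger step, 1 fragment in a transcript of 1 kb was worth 0.0138 FPKM in ESCs against 0.0135 FPKM in NCs. By this estimate the member with the fewest fragments was Lats2 in ESCs, with about 397 (a counting SD of 5.02%), followed by Tead4 in NCs with about 648 (3.93%), and all 10 genes were far above a floor of 3 fragments. These figures cover counting error only, and the spread between replicates adds to it.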

How the data were processed

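RNA of 3 ESC and 3 NC samples was sequenced from TruSeq libraries on a HiSeq instrument. The submitters' processing notes name TopHat2 2.0.8, Bowtie2 2.1.0 and Cufflinks 2.0.2 with genome mm10, and the authors computed FPKM with Cuffdiff, whose version is not given in the sources used here. The deposited FPKM values are 1 per gene and condition, pooled by the authors over replicates, and the heading FPK of the NC column was read as FPKM. The authors' deposited fold changes, test statistics, p-values and q-values were not used. FPKM depends on the transcript models and on the scaling between libraries, which cannot be undone here.

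The ratio of NC to ESC was taken without a pseudocount and called at 2-fold, over rows with at least 1 FPKM in either condition. The analysis planned for replicate values could not be made with pooled columns. The 10 genes and all lists were chosen with earlier results of these data known. Named genes are the 10, and in each other pathway list the called genes with the 3 largest differences in each direction. These differences were ranked on the log2(FPKM + 1) scale. Others, such as Tgfb2, Limd1 and Nf2, were added by choice to account for a list. Of the marker lists only some genes are named, and not all that this rule gives.

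Positions and shared exons came from GENCODE M21 (GRCm38), with transcripts cut into words of 50 bases, and promoters from RefSeq (GRCm38.p6). Fragment estimates, made after the data were seen, assumed the longest transcript and fragments of 200 bases. Alternatives were pseudocounts of 0.1 and 1, no filter, at least 1 FPKM in both conditions, limits of 1.5-fold and 4-fold, centring on the median, rows of one name summed and, added after the data were seen, division by the column sum. The code for the calls was run on a copy of the values with known fold changes planted without noise. That run checks the code only and does not measure the error of the calls. Python 3.11.15, numpy 2.4.6, pandas 2.3.3 and matplotlib 3.10.9 were used.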

Additional observations from a re-analysis of the deposited data

How the results depend on the processing

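No paired analysis was possible because the table holds pooled values, and for the same reason no replicate could be left out. Of 40 alternative log2 ratios of the 10 genes, 35 kept their sign and side of the 2-fold limit. The ratio of Tead1 changed sign to 0.03 after centring and to 0.28 after division by the column sums, and Tead2 (1.04 after centring, 1.29 after division) and Cyr61 (1.19 after division) went past 2-fold. Among the 10 genes, 5 were higher and 2 lower at 1.5-fold, 1 was higher at 4-fold and 5 were higher after division by the column sums. Of the other pathway genes, 64 passed the main limit of 1 FPKM. With a pseudocount of 1, 2 were lower, and with no filter 13 were higher. At 1.5-fold 17 were higher and 9 lower, at 4-fold 2 and 1, and after division 12 were higher. Beside these, of all 13293 rows that passed, 1074 were higher and 974 lower with a pseudocount of 1, and 2741 and 2573 at 1.5-fold. At 4-fold 679 were higher and 488 lower, and after division 2350 and 980. With at least 1 FPKM in both conditions 873 were higher and 924 lower of 11717 rows. With no filter, and so over more rows, 3861 were higher and 2880 lower. The cause of these shifts was not tested beyond what each limit or scaling does by its construction. Values of single replicates were not analysed here.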
